A study of Mus musculus with 30 samples.

Results

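Albumin (Alb), fetuin-A (Ahsg), 3 apolipoproteins (Apoa1, Apoa2, Apoh), the 3 fibrinogen chains (Fga, Fgb, Fgg) and tyrosine aminotransferase (Tat) are genes that adult mammals express mainly in the hepatocyte. Their transcripts were followed in whole eye and in a block of hypothalamus, where they are not expected to be major products. The members were the 9 genes of this set among 28146 gene names on the array, taken by gene name from the hypothalamus array files and matched in the eye by probe. Each of the 9 had 1 probe. Microarrays with 60-mer probes and a single label (Cy3) were hybridised with RNA from adult male WT and Per3-/- littermates on a C57Bl/6J background, the knockout lacking an intact copy of the clock gene Per3. All mice had lived through 17 cycles of 3.5 h light and 3.5 h dark, and tissue was taken during the light of the last cycle. The hypothalamus was measured in 8 WT and 8 Per3-/- mice and the eye in 7 of each genotype, each sample on its own array. All values below are log2 processed signals minus the log2 of the 75th percentile of the array, so 0 means a signal equal to that percentile. A probe is called well above background where the scanner software marked it so.

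Albumin carries fatty acids and hormones in plasma and holds its osmotic pressure, and fetuin-A keeps calcium phosphate in solution. Apoa1 and Apoa2 are the main proteins of high-density lipoprotein, and Apoh binds anionic phospholipids. Fibrinogen is assembled from the products of Fga, Fgb and Fgg and is cut by thrombin into fibrin. Tat degrades tyrosine and is a textbook target of glucocorticoids, whereas the other genes encode secreted proteins. In the hepatocyte these genes are driven by liver-enriched factors such as HNF1, HNF4, the C/EBP family and, for albumin, the clock-controlled factor DBP, which is named after the D element of the albumin promoter.

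The probes that carry the results are shown first, 5′ to 3′ as synthesised, in lower case with no base singled out. The positions are those of the array files on assembly mm9. Alb, Ahsg, Fgb and Fgg are shown as 4 genes whose signals moved together closely, and Fga and Tat because they followed the other genes least in each tissue.
Alb, chr5:90901598-90901657, plus strand: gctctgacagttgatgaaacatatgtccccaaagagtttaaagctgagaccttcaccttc
Ahsg, chr16:22899415-22899474, plus strand: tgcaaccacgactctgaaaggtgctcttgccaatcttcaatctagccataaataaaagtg
Fgb, chr3:82846334-82846393, minus strand: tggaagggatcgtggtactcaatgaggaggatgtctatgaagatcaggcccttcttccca
Fgg, chr3:82818825-82818884, plus strand: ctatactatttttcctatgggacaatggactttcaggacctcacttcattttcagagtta
Fga, chr3:82835678-82835737, plus strand: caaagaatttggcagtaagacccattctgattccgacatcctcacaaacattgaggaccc
Tat, chr8:112523207-112523266, plus strand: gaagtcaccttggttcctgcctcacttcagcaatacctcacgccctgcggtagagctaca
The probes of the 3 fibrinogen genes lay within 27.6 kb of chromosome 3, with Fga between Fgg and Fgb. The G and C share of the 9 probes ran from 35% for Apoh to 55% for Apoa1 and Tat.

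The promoters of albumin and of the fibrinogen genes are given because Alb, Fgb and Fgg moved together and Fga followed them less. Each runs from 250 bases before to 50 bases after the start of the gene in RefSeq on GRCm38.p6, a different assembly from that of the probes, and reads along the strand of the gene. All 9 genes had a promoter entry. Capitals mark matches, on either strand, to the HNF1 motif GTTAAT, the D-box motif TTATGTAA, the C/EBP motif TTNNGNAAT, the HNF4 motif CAAAGTCCA and the TATA motif TATAAA.
Alb, chr5:90460620-90460919, plus strand: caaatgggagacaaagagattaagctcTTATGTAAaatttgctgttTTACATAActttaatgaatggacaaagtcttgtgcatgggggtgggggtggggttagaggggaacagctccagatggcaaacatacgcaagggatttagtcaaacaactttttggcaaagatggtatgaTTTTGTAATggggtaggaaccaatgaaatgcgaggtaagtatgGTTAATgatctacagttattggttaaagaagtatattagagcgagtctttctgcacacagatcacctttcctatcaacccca
Fgb, chr3:83049814-83050113, minus strand: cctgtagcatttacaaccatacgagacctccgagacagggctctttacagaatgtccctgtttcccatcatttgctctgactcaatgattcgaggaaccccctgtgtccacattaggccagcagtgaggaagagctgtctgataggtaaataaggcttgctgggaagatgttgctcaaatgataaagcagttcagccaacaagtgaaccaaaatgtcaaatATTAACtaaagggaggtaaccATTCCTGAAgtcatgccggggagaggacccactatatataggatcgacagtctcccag
Fga, chr3:83025903-83026202, plus strand: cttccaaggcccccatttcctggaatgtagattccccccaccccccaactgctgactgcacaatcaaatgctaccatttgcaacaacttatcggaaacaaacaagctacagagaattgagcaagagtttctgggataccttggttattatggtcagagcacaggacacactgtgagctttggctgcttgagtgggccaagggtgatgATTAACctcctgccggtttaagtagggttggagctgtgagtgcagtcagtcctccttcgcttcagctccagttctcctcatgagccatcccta
Fgg, chr3:83007474-83007773, plus strand: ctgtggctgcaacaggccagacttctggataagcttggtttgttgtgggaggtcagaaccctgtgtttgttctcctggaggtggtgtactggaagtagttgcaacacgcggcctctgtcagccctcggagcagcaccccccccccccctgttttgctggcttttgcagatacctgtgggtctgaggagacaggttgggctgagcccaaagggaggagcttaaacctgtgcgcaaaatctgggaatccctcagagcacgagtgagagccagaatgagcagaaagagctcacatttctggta
The albumin promoter held a pair of matches to the D-box motif, beginning at positions -223 and -204 from the start of the gene. It also held an HNF1 motif at position -32. Such letter matches do not identify the D element after which DBP is named. The D-box motif was found in 0.938% of all 32851 promoters of this length, and Alb was the only one of the 9 genes with it. The HNF1 motif was found in the promoters of Alb, Fga and Fgb, against 7.1% of all promoters, and the C/EBP motif in those of Alb, Ahsg, Apoh and Fgb, against 11.5%. In these windows the E-box CACGTG, at which the clock factors bind, and the HNF4 motif had no match in the 9 genes, against 7.15% and 0.475% of all promoters, and the TATA motif matched only in Apoa2, against 13.6%. The glucocorticoid motif AGAACA, which is not capitalised, was found for Ahsg, Apoh and Fgg but not for Tat, against 19% of all promoters. Fga shared the HNF1 motif with Fgb and Alb, and the windows gave no letter pattern that set Fga apart.

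The arrays were of like quality. The 75th percentile of signal ran from 1408 to 2207 units on hypothalamus arrays and from 1133 to 1644 on eye arrays, and 67.9% to 80.7% of probes were well above background. The Per3 probe was well above background on all arrays and lay between -3.79 and -3.28 in WT and between -4.21 and -3.59 in Per3-/- hypothalamus. In eyes it lay between -3.55 and -2.57 in WT and between -4.12 and -2.90 in Per3-/- mice. Whether this probe lies in the disrupted part of the gene is not given in the sources used here. The tissues showed their own markers: all 8 retina and lens markers were well above background on every eye array and 3 of 8 on every hypothalamus array, and 7 of 7 hypothalamic markers on every hypothalamus array and 4 of 7 on every eye array. Detection alone thus did not separate the tissues for all markers. One eye array, of Per3-/- mouse 2, stood apart, with the highest value of the tissue for 9 of 9 genes. In the hypothalamus Per3-/- mouse 7 was highest for 7 of 9 genes. Results that rest on these 2 arrays are given with and without them.

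In the hypothalamus the carrier proteins were detected in nearly all mice but at widely different levels. Alb ran from -7.31 through a median of -3.25 to -1.71 in the 8 WT mice, and from -8.12 through -4.05 to -0.63 in the 8 Per3-/- mice. The genotypes overlapped over almost the whole range, and in each genotype 1 mouse, WT 5 and Per3-/- 4, was not well above background. Among the 14 mice in which Alb was well above background the highest was 23.8 times the lowest. Ahsg gave the same picture, from -6.43 through -3.30 to -1.98 in WT and from -6.95 through -4.00 to -0.72 in Per3-/- mice, and was undetected in the same 2 mice. In the eye Alb was well above background in all 14 mice, from -3.13 through -0.67 to 1.38 in WT and from -3.02 through -0.05 to 4.95 in Per3-/- mice. The lowest and the highest eye differed 272-fold, or, with Per3-/- mouse 2 set aside, the highest was the WT value of 1.38. Ahsg in the eye ran from -2.76 through -1.23 to 0.63 in WT and from -3.32 through -0.55 to 4.13 in Per3-/- mice.

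The apolipoproteins varied less in the hypothalamus. Apoa2 stayed between -2.91 and -2.39 in WT, with a median of -2.60, and between -2.86 and -1.24 in Per3-/- mice, with a median of -2.59. Apoh stayed between -4.82 and -4.11 with a median of -4.50 in WT, and between -4.74 and -3.25 with a median of -4.39 in Per3-/- mice. Both were well above background in 16 of 16 mice. Apoa1 was dim there, with 3 of 8 WT and 4 of 8 Per3-/- mice well above background and values from -7.79 to -4.94. In the eye all 3 spread more widely. Apoa2 ran from -4.44 through -2.84 to -1.57 in WT and from -4.44 through -2.83 to 1.82 in Per3-/- mice, and Apoa1 from -5.94 through -5.07 to -3.63 and from -6.84 through -4.67 to -0.08. Apoa1 was not well above background in 3 of 7 Per3-/- eyes and was detected in all 7 WT eyes. Apoh ran from -3.76 through -3.01 to -1.90 in WT and from -4.03 through -2.72 to 1.28 in Per3-/- eyes.

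The Apoa1 probe was printed at 10 spots on each array, which measures the error between spots of one array and leaves out that of dissection, RNA, labelling and hybridisation. The SD over these spots had a median of 0.25 in the hypothalamus and 0.14 in the eye, with highest values of 0.53 and 0.57. The SD between mice of one genotype was 0.84 in the hypothalamus and 1.64 in the eye. Within the genotypes the eye SD was 0.82 in WT and 2.17 in Per3-/- mice, the latter with mouse 2 among them.

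Of the fibrinogen chains, Fgb and Fgg behaved as albumin did. In the hypothalamus Fgb ran from -7.77 through -4.95 to -4.02 in WT and from -6.86 through -5.55 to -3.11 in Per3-/- mice, and was well above background in 6 of 8 and 5 of 8. Fgg ran from -7.50 through -5.43 to -4.61 and from -7.61 through -6.35 to -3.43, with 6 of 8 and 4 of 8 detected. Fga, whose chain is needed for the same protein, ran only from -6.28 through -5.90 to -5.55 and from -6.59 through -5.99 to -5.58, with 5 of 8 detected in each genotype, so it lay near the limit of detection throughout. In the eye Fgb ran from -4.61 through -3.15 to -1.46 in WT and from -5.18 through -2.56 to 2.17 in Per3-/- mice, and Fgg from -4.66 through -3.64 to -1.93 and from -5.21 through -3.04 to 1.603. Both were detected in all 14 eyes. Fga in the eye followed the slide. The 4 mice on slide 4, both genotypes alike, lay between -4.08 and -3.74, whereas the 8 mice on slides 2 and 3 lay between -6.56 and -5.20, and the remaining 2 were WT 1 at -4.83 and Per3-/- 2 at -2.41. The part of the slide in the Fga values was not tested.

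Tat was well above background in all 16 hypothalami and all 14 eyes, and had the smallest spread of the 9 genes in the eye. It ran from -3.79 through -3.42 to -2.46 in WT and from -3.82 through -3.28 to -2.42 in Per3-/- hypothalamus. In the eye it ran from -0.84 through -0.70 to -0.07 and from -0.91 through -0.66 to 0.26. The plot of values by mouse shows the contrast between Tat and the carrier proteins.

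**Figure D1:**
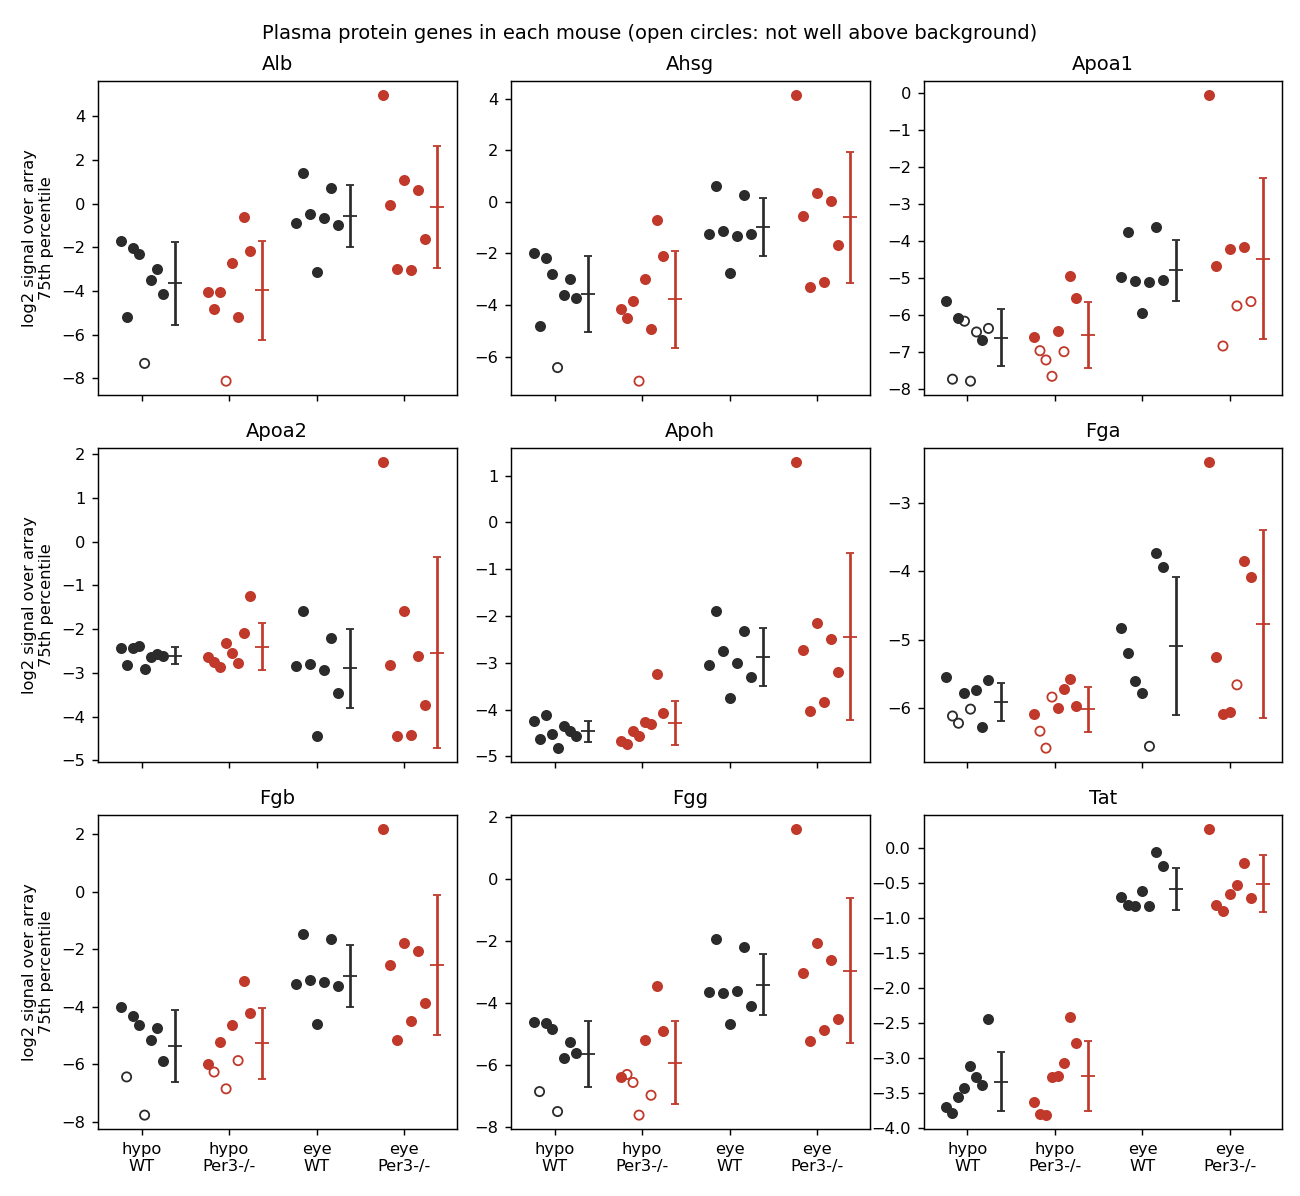
Log2 signal of each gene over the 75th percentile of the array (y axes, 1 scale per gene) in the 4 groups (x axis; hypo, hypothalamus), with 1 circle per mouse in the order of replicate number, open where the probe was not well above background, and the mean and SD beside each group. Alb in the hypothalamus spreads from -8.12 to -0.63, Tat there only from -3.82 to -2.42, and the highest eye value of every gene is Per3-/- mouse 2.

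Set against all probes well above background on at least 50% of the arrays of a tissue, albumin was among the most variable transcripts. The SD between mice of one genotype was 2.07 for Alb in the hypothalamus, 12th of 29642 probes, where the median probe had 0.14. It was 1.69 for Ahsg (22nd), 1.24 for Fgb (75th) and 1.20 for Fgg (83rd), but 0.46 for Tat, 0.40 for Apoa2, 0.37 for Apoh and 0.31 for Fga. These SDs and ranks take in values not well above background. Alb and Ahsg were detected in 14 of 16 hypothalami, Fgb in 11, and Fgg and Fga in 10. In the eye the SD was 2.22 for Alb, 10th of 31432 probes against a median of 0.20, and exceeded 1.2 for 8 of 9 genes, with Tat at 0.36. These pooled eye values include Per3-/- mouse 2. In WT eyes alone the SD was 1.43 for Alb, 1.12 for Ahsg, 1.08 for Fgb, 1.01 for Fga and 0.99 for Fgg. It was 0.91 for Apoa2, 0.82 for Apoa1, 0.62 for Apoh and 0.31 for Tat. In Per3-/- eyes, with mouse 2 among them, Alb had an SD of 2.79.

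The next question was whether the levels rose and fell together across mice of one genotype. Alb, Ahsg, Fgb and Fgg did so by Pearson r in each of the 4 groups. These 4 were picked from the same correlations, so the counts of their passing pairs describe them and do not test the choice. Apoa1, dim in the hypothalamus, was as close. With genotype means taken out, its r with the mean of the other 8 genes was 0.96 in the hypothalamus and 0.99 in the eye. For Alb it was 0.94 and 0.98. In WT hypothalamus the 6 pairs among them had Pearson r between 0.97 and 0.99 and Spearman rho between 0.98 and 1 over 8 mice. The largest exact permutation p of these pairs was 0.000174, with an adjusted p of at most 0.00123 over the 136 pairs examined in the 4 groups. In Per3-/- hypothalamus r ran from 0.94 to 0.99 (n = 8, largest exact p 0.000868, adjusted 0.00268) and rho from 0.79 to 1. Without the 2 mice farthest from the median of the first gene, the lowest r was 0.87 in WT and 0.82 in Per3-/- mice. In WT eyes r ran from 0.94 to 0.997 (n = 7, largest exact p 0.00317, adjusted 0.00744) and rho from 0.75 to 1. Per3-/- eyes held mouse 2 far from the other 6, so r is given without it: between 0.974 and 0.996 over 6 mice, with 6 of 6 pairs at an adjusted p under 0.05 by exact permutation for r and 3 of 6 for rho. Over all mice, rho passed for 6 of 6 pairs in WT hypothalamus, 5 of 6 in Per3-/- hypothalamus and 5 of 6 in WT eyes. Without the highest mouse, r passed for 6, 6 and 4 of the 6 pairs in these 3 groups and rho for 6, 1 and 1. In WT eyes the pairs lost by r were Alb with Fgg and Ahsg with Fgg. With slide means taken out the lowest r of these pairs was 0.97 in WT hypothalamus, 0.84 in Per3-/- hypothalamus, 0.92 in WT eyes and 0.99 in Per3-/- eyes. Apoa1 was detected in too few WT hypothalami to enter the pairs there. The values of a pair come from the same arrays and share the labelling and the scaling of each.

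A single pair shows the tightness. Alb and Ahsg had r = 0.99 in WT hypothalamus (rho = 1, exact p = 2.48e-05, adjusted p = 0.000843, n = 8) and r = 0.99 in Per3-/- hypothalamus, with the same p. The mice had the same order for both genes in each genotype, from WT 5 and Per3-/- 4 at the bottom to WT 1 and Per3-/- 7 at the top.

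Fga followed its partner chains less. In WT hypothalamus Fga and Fgb had r = 0.15 (rho = 0.14, exact p = 0.725, adjusted p = 0.753, n = 8), where Fgb and Fgg had r = 0.97 (rho = 0.98, exact p = 0.000174, adjusted p = 0.00123). In Per3-/- hypothalamus the r of Fga with Fgb was 0.32 (rho = 0.31, exact p = 0.438, adjusted p = 0.522, n = 8), and in WT eyes it was 0.40 (rho = 0.21, exact p = 0.388, adjusted p = 0.48, n = 7). In Per3-/- eyes it fell from 0.74 with mouse 2 to 0.28 without it. In the hypothalamus the Fga probe was dim, as above, and in the eye its values ran with the slide. Whether those account for the low r was not tested. Tat went less with Alb, with r = -0.32 in WT hypothalamus (rho = -0.45, exact p = 0.423, adjusted p = 0.509), 0.52 in Per3-/- hypothalamus (rho = 0.48, exact p = 0.183, adjusted p = 0.251) and 0.08 in WT eyes (rho = -0.21, exact p = 0.841, adjusted p = 0.86). Without mouse 2, Alb and Tat had r = 0.38 over the 6 other Per3-/- eyes. In Per3-/- hypothalamus, however, the 8 pairs with Tat had a median r of 0.70 and 3 of 8 passed, Tat with Apoh at r = 0.89 (rho = 0.83, exact p = 0.00151, adjusted p = 0.00381), with Fga at 0.85 and with Apoa1 at 0.77. With slide means taken out, the r of Tat there was 0.45 with Apoh, 0.99 with Fga and -0.08 with Apoa1. The part of the slide in these pairs was not tested. Fga and Tat went with each other in 3 of the 4 groups, at r = 0.85 in Per3-/- hypothalamus (rho = 0.88, exact p = 0.00751, adjusted p = 0.0159), 0.85 in WT eyes (rho = 0.79, exact p = 0.0163, adjusted p = 0.0303) and 0.84 in Per3-/- eyes (rho = 0.71, exact p = 0.0183, adjusted p = 0.0335). Without the highest mouse of each group these r were 0.79, 0.88 and 0.59, and no pair with Tat or Fga passed, with adjusted exact p of 0.0773, 0.0535 and 0.351 for Fga with Tat.

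In the eye the apolipoproteins joined the group by r, and less so by rho. In WT eyes the 15 pairs of an apolipoprotein with another gene of the set, Fga and Tat aside, had r between 0.91 and 0.99, and 15 of 15 had an adjusted p under 0.05 (exact permutation). Without the highest mouse 8 of 15 did, and r stayed at or above 0.87. By rho 8 of 15 passed in WT eyes over all mice, and 2 of 15 without the highest mouse. In Per3-/- eyes without mouse 2, 14 of 15 such pairs had an adjusted p under 0.05 by r. By rho 7 of 15 did without mouse 2, and 15 of 15 with it. In WT hypothalamus Alb went with Apoa2 (r = 0.96, rho = 0.88, exact p = 0.000422, adjusted p = 0.00169, n = 8) and with Apoh (r = 0.86, rho = 0.88, exact p = 0.0057, adjusted p = 0.0127). In Per3-/- hypothalamus r was 0.41 for Alb with Apoa2 (rho = 0.48, exact p = 0.304, adjusted p = 0.393) and 0.73 for Alb with Apoh (rho = 0.74, exact p = 0.0507, adjusted p = 0.0775). The difference between the genotypes in these correlations was not tested. Over all 4 groups 78 of 136 pairs had an adjusted p under 0.05, and 54 of 136 did when the highest mouse of each group was left out. By rho the counts were 58 and 25 of 136. With slide means taken out, the median r over the pairs of Per3-/- hypothalamus moved from 0.72 to 0.18, whereas it was 0.80, 0.95 and 0.96 in the other 3 groups, in the order WT hypothalamus, WT eye and Per3-/- eye.

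**Figure D2:**
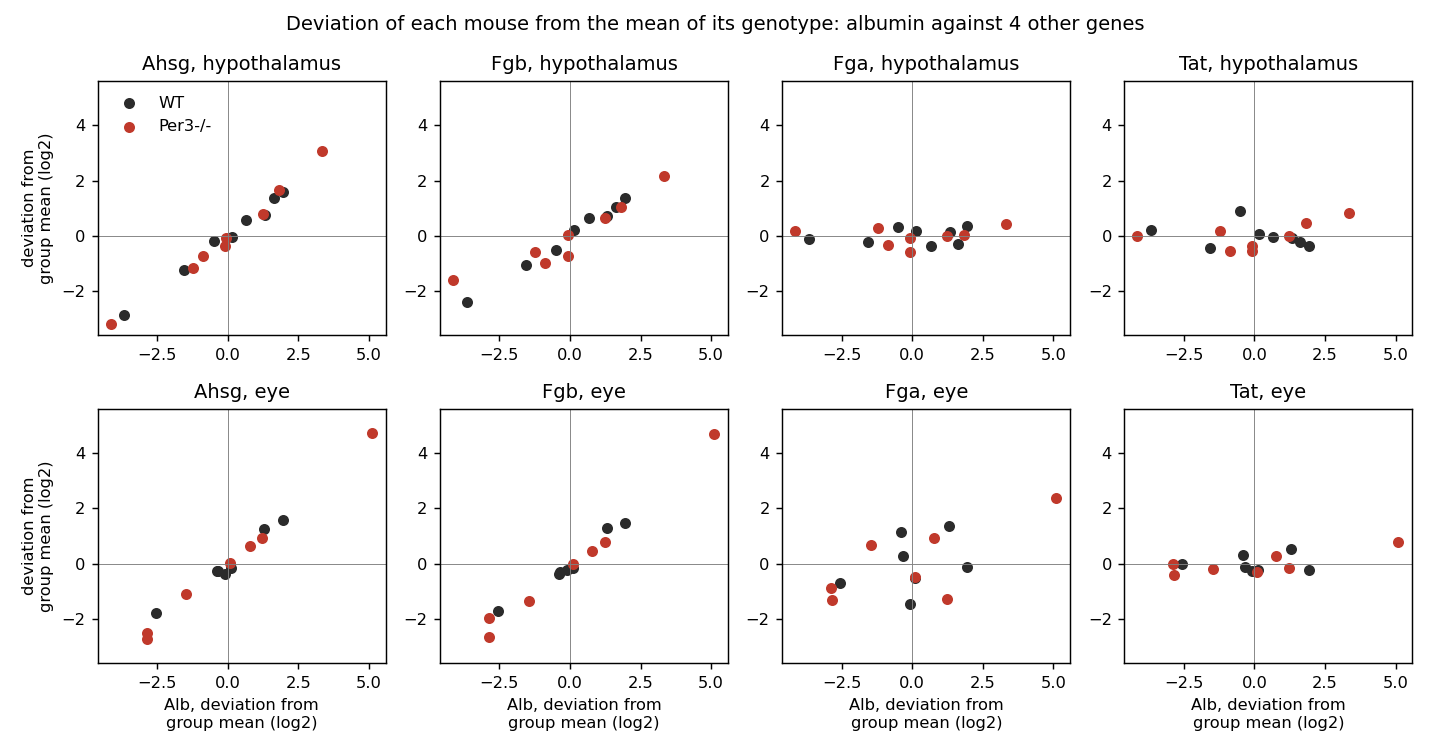
Deviation of each mouse from the mean of its genotype and tissue (log2) for Ahsg, Fgb, Fga and Tat (y axes) against that of Alb (x axes), in the hypothalamus (top) and the eye (bottom), WT in black and Per3-/- in red. Ahsg and Fgb rise with Alb in both tissues, Fga and Tat change little with Alb in the hypothalamus, and the isolated red point of the lower panels is Per3-/- mouse 2.

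The level in one tissue was set against that in the other for the 7 WT and 7 Per3-/- replicate numbers with both arrays. That the same number and genotype mark one mouse in both tissues is assumed and not stated by the labels. Same-numbered arrays of the tissues had deviations that correlated at -0.11 to 0.19. Only probes marked well above background in all samples entered these correlations, so Alb was among the genes left out. None of the 17 relations had an adjusted p under 0.05 by exact permutation, and 2 had an unadjusted p under 0.05. In WT mice Alb had r = 0.80 between eye and hypothalamus (rho = 0.61, exact p = 0.0415, adjusted p = 0.229, n = 7), which was 0.04 without the 2 mice farthest from the median, so for Alb it rests on those mice. In WT mice the r of Fgb went the other way, from 0.73 to 0.90, as did that of Fgg, from 0.64 to 0.89. In Per3-/- mice r for Alb was 0.30 (rho = 0.43, exact p = 0.5, adjusted p = 0.825, n = 7), and 0.74 without the 2 farthest mice. Per3-/- mouse 2, with the highest eye value for Alb at 4.95, had a hypothalamus value of -4.84, below the median of its group. Per3-/- mouse 7, highest in the hypothalamus, had an eye value of 0.64.

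Genotype was compared next. In the hypothalamus 0 of 9 genes passed an adjusted p of 0.05 (limma, Benjamini-Hochberg over 41174 probes), where 0.0413% of all probes did, and 0 of 9 had an unadjusted p under 0.05, against 2.82% of probes. The fold changes were small against their errors: -0.32 ± 0.98 (log2, SE) for Alb, -0.21 ± 0.80 for Ahsg, 0.10 ± 0.59 for Fgb and -0.29 ± 0.57 for Fgg, all with an adjusted p of 0.99 in limma. Without Per3-/- mouse 7 they were -0.80 ± 0.93, -0.65 ± 0.73, -0.21 ± 0.55 and -0.64 ± 0.49, so the sign of Fgb turned, as did those of Apoa1, from 0.07 to -0.16, and Tat, from 0.08 to -0.04. The narrow genes detected in every mouse allow a closer statement: Apoh differed by 0.17 ± 0.18, Apoa2 by 0.20 ± 0.19 and Tat by 0.08 ± 0.22. Fga differed by -0.10 ± 0.15, but its probe was well above background in only 10 of 16 hypothalami. Its small error therefore does not bound a genotype effect.

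In the eye 0 of 9 genes passed, against 0.0194% of all probes, and 0 of 9 had an unadjusted p under 0.05, against 1.8%. All 9 fold changes were above 0 with every array, from 0.08 ± 0.18 for Tat to 0.44 ± 0.90 for Fgg, and all 9 were below 0 without Per3-/- mouse 2, from -0.42 ± 0.48 for Apoa1 to -0.05 ± 0.15 for Tat. For Alb the value went from 0.43 ± 1.11 to -0.42 ± 0.83. The direction in the eye thus came from 1 array. Within single slides the difference between genotypes for Alb ran from -1.98 to 5.86 for eyes and from -3.91 to 2.18 for hypothalami, and was above 0 on 2 of 4 slides in each tissue. The genotype effect did not differ between the tissues past the threshold for any of the 9 genes (limma, 0 of 9 against 0.00486% of probes, and 0 of 9 at an unadjusted p under 0.05 against 1.93%), with the difference for Alb at 0.75 ± 1.52.

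**Figure D3:**
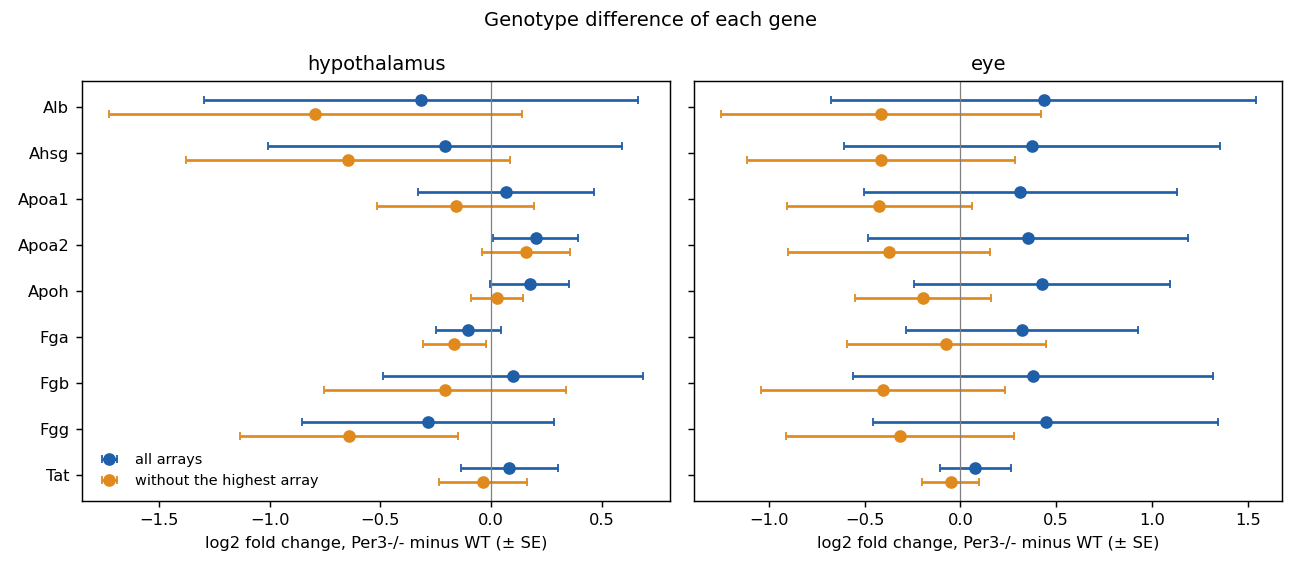
Log2 fold change of Per3-/- over WT with its SE (x axes) for each gene in the hypothalamus (left) and the eye (right), with all arrays in blue and without the highest array of the tissue in orange. Every error bar of the eye crosses 0, and all 9 blue points lie to the right of 0 and all 9 orange points to the left.

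Between the tissues, 8 of the 9 genes had the higher mean in the eye in both genotypes. The arrays of the tissues were run on separate slides, so tissue and hybridisation cannot be told apart, and 75.1% of all probes in WT and 77.2% in Per3-/- mice differed. The median of all probes was shifted towards the eye by 0.15 in WT and 0.23 in Per3-/- mice, so that the fold changes of Alb below stand 2.93 and 3.604 above that median and those of Tat 2.60 and 2.52. In WT mice 7 of 9 genes were higher in the eye at an adjusted p under 0.05 (limma), where 41.7% of probes were, and in Per3-/- mice 8 of 9 were, where 44% of probes were. None was lower in the eye past the threshold, where 33.4% and 33.3% of probes were. Alb was higher by 3.08 ± 1.07 in WT (limma, adjusted p = 0.0111) and by 3.83 ± 1.07 in Per3-/- mice (adjusted p = 0.00202). Tat, with the smallest spread, was higher by 2.75 ± 0.21 in both, with limma adjusted p of 7.55e-13 and 7.92e-13, and all 7 eyes of each genotype lay above all 8 hypothalami. Fgb was higher by 2.46 ± 0.79 and 2.73 ± 0.79 and Fgg by 2.23 ± 0.76 and 2.96 ± 0.76. Fga was higher by 0.82 ± 0.43 in WT, which did not pass in limma (adjusted p = 0.0838, and 0.0392 with the 2 highest arrays left out), and by 1.24 ± 0.43 in Per3-/- mice (adjusted p = 0.00992). Apoa2 differed by -0.29 ± 0.59 and -0.14 ± 0.59, with limma adjusted p of 0.67 and 0.833. With the 2 highest arrays left out, its difference in Per3-/- mice was -0.82 ± 0.40 (limma, adjusted p = 0.0673), so that value depended on those arrays. In bulk tissue such as this, fewer cells of a type and less RNA per cell cannot be told apart. With quantile normalization 4 of 9 genes passed in WT mice and 6 of 9 in Per3-/- mice, all higher in the eye, where 34.8% of probes were in each genotype. With another background correction (normexp) 3 of 9 and 6 of 9 passed, again all higher, where 34.9% and 35.1% of probes were. Both settings turned the balance of all probes. In WT mice it went from 17181 higher and 13749 lower in the eye to 14341 and 16637 with quantile normalization and 14387 and 16066 with normexp. In Per3-/- mice it went from 18096 and 13703 to 14326 and 16258, and to 14462 and 16134.

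The genes most like the mean of the 9, after genotype means were taken out, were other hepatocyte products. In the hypothalamus the closest was Serpina1d, an alpha-1-antitrypsin gene, with r = 0.99 over 16 mice, followed by Es1, Serpina3k, Gm4738, Mup3, a major urinary protein, Gc, the vitamin D binding protein, Mug1, Serpina3m, Ambp and a probe of antithrombin, Serpinc1, at 0.92. In the eye the closest over 14 mice was again Serpina1d, at r = 0.997, followed by F2, which encodes prothrombin, Mbl2, Serpina1b, Rdh7, Ambp, Serpina3k, Slc27a5, Fbp1 and Gm4738 at 0.98. Serpina1d was well above background in every sample and ran over a 36.2-fold range in the hypothalamus and an 80.1-fold range in the eye. The 10 closest of the hypothalamus kept r of at least 0.89 without Per3-/- mouse 7, and those of the eye at least 0.96 without Per3-/- mouse 2. These correlations are descriptions over mice that share their arrays, and for the members the mean includes the gene itself. Against the mean of the other 8 genes, r in the hypothalamus was 0.94 to 0.98 for Alb, Ahsg, Apoa1, Fgb and Fgg, 0.83 for Apoh, 0.59 for Apoa2, 0.31 for Tat and 0.30 for Fga. In the eye it was at least 0.97 for 7 genes, 0.68 for Tat and 0.64 for Fga, and the last 2 were 0.33 and 0.32 without Per3-/- mouse 2.

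Lists of related genes show how far the pattern reached. An r of at least 0.7 with the mean of the 9 was found for 0.574% of 29634 other probes in the hypothalamus and for 0.605% of 31423 in the eye, or for 0.776% and 0.353% without the highest array of the tissue. Of 58 other liver plasma protein genes on the array, 44 were detected on at least 50% of hypothalamus arrays and 14 of them had such an r, 13 without Per3-/- mouse 7, with a median of 0.32 against 0.02 over all probes. In the eye it was 32 of 55, with a median of 0.79 against -0.00, and 20 of 55 without Per3-/- mouse 2. The 2 genes of this list with the highest signal in each tissue did not take part: Itih3 had r = -0.13 and vitronectin (Vtn) 0.36 in the hypothalamus, and Vtn 0.09 and paraoxonase 1 (Pon1) 0.19 in the eye. The probes of antithrombin disagreed, since the Serpinc1 probe of highest signal had r = -0.04 in the hypothalamus. Enzymes that stay in the hepatocyte went along as well. Of 26 detected in the hypothalamus 7 had r of at least 0.7, 4 without Per3-/- mouse 7, with Cps1, of the urea cycle, and Fabp1, a fatty acid binding protein, both at 0.92 and Fbp1, of gluconeogenesis, at 0.88. In the eye it was 21 of 31, with Fbp1 at 0.98 and Fabp1 at 0.95, and 16 of 31 without Per3-/- mouse 2. Enzymes of high signal were not among them: Ass1, the highest in the hypothalamus, had r = -0.31 there, and Ces3 and Ass1, the 2 highest in the eye, had 0.18 and 0.10.

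Of the transcription factors of the hepatocyte 0 of 14 detected in the hypothalamus had r of at least 0.7, and 1 of 14 without Per3-/- mouse 7, with Hnf4a at 0.10 and Cebpa at 0.06. In the eye 2 of 15 did, Nr1h4 at 0.78 and Creb3l3 at 0.73, and 0 of 15 without Per3-/- mouse 2. Dbp, the factor named after the albumin promoter, was well above background in all samples, with r of -0.06 in the hypothalamus and 0.18 in the eye. Its genotype difference was -0.25 in the hypothalamus and -0.34 in the eye, and neither passed in limma, with adjusted p of 0.991 and 1. No list gene passed between the genotypes in either tissue. Genes of clot formation and removal, such as Serpine2 and tissue factor (F3), had 0 of 10 and 0 of 11 at r of 0.7 or more, and the apolipoproteins made locally, led by Apoe and Clu, had 0 of 10 in both tissues. In the albumin family Gc had r = 0.96 in the hypothalamus and 0.98 in the eye, afamin (Afm) 0.35 and 0.96, and alpha-fetoprotein (Afp) -0.43 and 0.37.

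Markers of other tissues were read beside these results. Red blood cell genes, 6 probes of which 5 were detected in each tissue, had a median r of 0.11 in the hypothalamus and 0.35 in the eye, and none reached 0.7. Their summed linear signal, in multiples of the 75th percentile, ran from 75.01 to 129.8 in WT and from 77.1 to 217 in Per3-/- hypothalamus, where Per3-/- mouse 7 had 136, and in the eye from 53.4 to 138 and from 51.7 to 181, where the highest was Per3-/- mouse 2. The eye correlations of the haemoglobin genes turned below 0 without that mouse, with Hba-a1 at 0.37 and then -0.33. Vascular endothelium had a median r of 0.09 in the hypothalamus and -0.17 in the eye. Choroid plexus markers ran against the 9 genes in the hypothalamus, where 9 of 10 had r of -0.5 or lower and the median was -0.69. There transthyretin (Ttr), the main secreted protein of that epithelium, had r = -0.65 and the folate receptor Folr1 -0.74. The sum of the 10 ran from 2.80 to 20.7 in WT and from 3.10 to 25.7 in Per3-/- mice, and all 10 were well above background in every hypothalamus. In the eye the median r of these markers was -0.09. Pituitary markers had a median r of -0.24 in the hypothalamus, with a sum from 6.47 to 48.7 in WT and from 4.16 to 1192 in Per3-/- mice. The part of choroid plexus, blood or pituitary in the levels of the 9 genes was not tested.

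**Figure D4:**
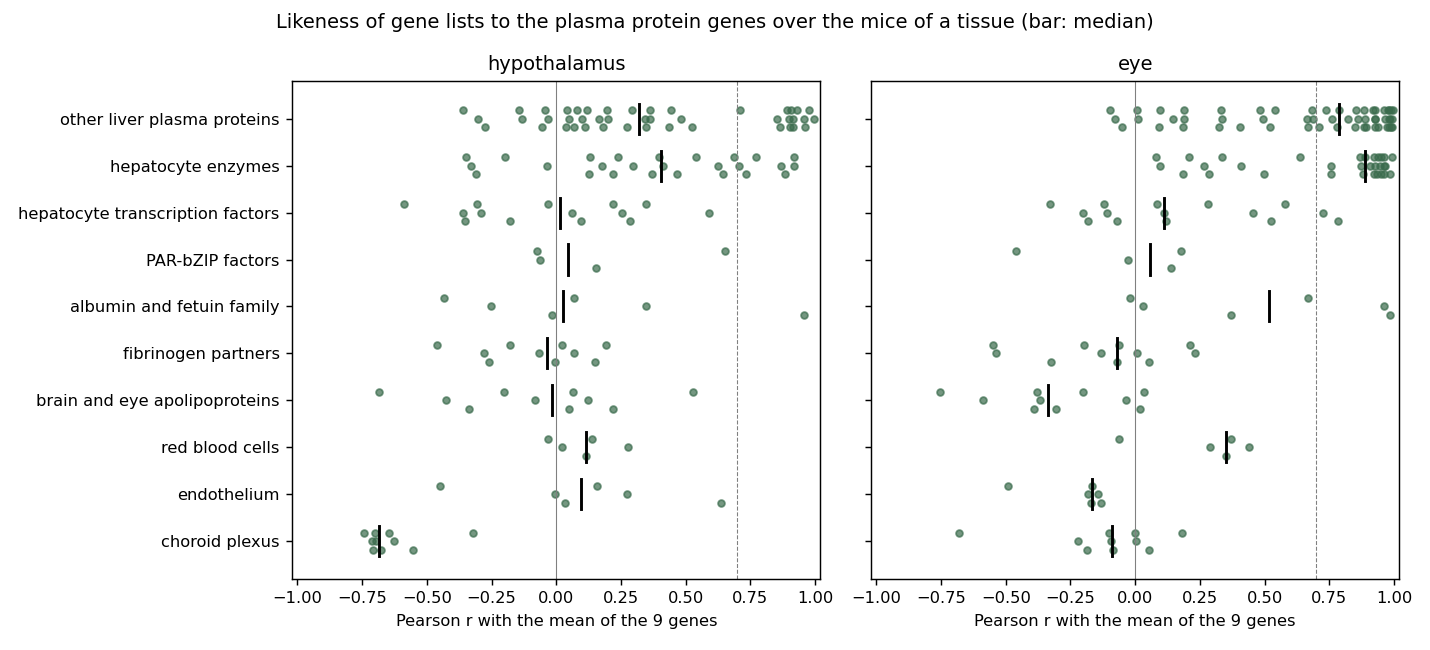
Pearson r of each detected gene of 10 lists with the mean of the 9 genes, Tat among them (x axes), in the hypothalamus (left, 16 mice) and the eye (right, 14 mice), with 1 point per gene, a bar at the median of the list and a dashed line at 0.7. Other liver plasma proteins and hepatocyte enzymes reach values above 0.9 in both tissues, and the choroid plexus lies near -0.69 in the hypothalamus.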

How the data were processed

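Total RNA of each mouse and tissue was labelled with Cy3 and hybridised to a 4x44K array. The authors extracted spot intensities with Agilent's Feature Extraction (version 10.7.1.1 per the file headers), and the deposited processed intensity is linear, background-subtracted and not normalized between arrays. A second deposited table holds log2 values of the authors relative to the median of each probe in a tissue, used here only as an alternative. Control probes were dropped, which left 41174 probes, and spots that the software had marked as outliers or not uniform, no more than 91 per array, were removed. Spots of a probe were averaged, and the log2 of each array's 75th percentile was subtracted. The number of arrays limits the precision.

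Groups came from sample titles. Genotypes were compared within each tissue, and tissues over the arrays of both, with limma 3.58.1 in R 4.3.3, two-sided, with Benjamini-Hochberg adjustment over all probes. Correlations used Pearson's r and Spearman's rho with exact permutation p over all pairings, two-sided, adjusted over 136 gene pairs and over 17 relations between tissues, for genes well above background on at least 50% of the arrays of the group. Alternatives were quantile normalization, normexp background correction with an offset of 50, a filter on dim probes, marked spots kept, the deposited values, the unpaired test of the methods, slide and replicate blocks, array weights and leaving out arrays. Scripts were tested on simulated data. The members and the lists were chosen with earlier results of these data known. Named were all 9 genes, the 10 genes most like their mean, and from each list genes of highest signal, and further list genes were named after their values were seen. P-values measure the spread between these mice. Genotypes were compared unpaired, since no label ties their replicate numbers, which were taken to mark 1 mouse across tissues, which the labels do not state. Some list genes are not reported here.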

Additional observations from a re-analysis of the deposited data

Results flagged for a closer look

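Of 36 sets of values (9 genes in 4 groups), 4 had a highest mouse farther from the next than Dixon's 95% criterion allows. Chance flags about 1 in 20 sets, but the genes of a group share their arrays. The sets are therefore not independent, and the count cannot be weighed against that rate. In Per3-/- eyes mouse 2 stood out for Apoa1 at -0.075, where the next was -4.17, and for Apoh at 1.28, where the next was -2.15. In Per3-/- hypothalamus mouse 7 stood out for Apoh at -3.25, where the next was -4.07, and mouse 8 for Apoa2 at -1.24, where the next was -2.10.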

How the results depend on the processing

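No gene passed between the genotypes under any alternative run, in either tissue or in the difference between tissues. With quantile normalization 4 and with normexp 3 of 9 genes were called between the tissues in WT mice, where 7 were, while 34.8% and 34.9% of all probes were higher in the eye against 41.7%, and the cause was not tested. With the replicate block, which in the eye keeps only mice whose number has both genotypes and so drops Per3-/- mouse 2 and WT mouse 1, the eye fold changes were Alb -0.47, Ahsg -0.46, Apoa1 -0.45, Apoa2 -0.37, Apoh -0.23, Fga -0.029, Fgb -0.46, Fgg -0.36 and Tat -0.070. The replicate block changed no call. Deviations of same-numbered arrays of the genotypes correlated at -0.21 to 0.39 for hypothalami, and for eyes at 0.02 in 1 pair and 0.26 to 0.67 in the other 5. In both tissues these same-numbered arrays shared a slide. Without the highest array they were Alb -0.42, Ahsg -0.41, Apoa1 -0.42, Apoa2 -0.37, Apoh -0.20, Fga -0.073, Fgb -0.41, Fgg -0.32 and Tat -0.051. In the hypothalamus those that turned were Apoa1 -0.16, Fgb -0.21 and Tat -0.038 without the highest array, and Apoa1 -0.043 and Tat -0.0073 with array weights. The difference between tissues turned without the highest arrays for Apoa1 -0.26, Apoa2 -0.53, Apoh -0.22 and Fgb -0.20, and for Tat to 0.011 with quantile normalization and 0.027 with normexp. Leaving out each mouse in turn gave ranges in the eye of -0.42 to 0.91 for Alb, -0.41 to 0.83 for Ahsg, -0.42 to 0.70 for Apoa1, -0.37 to 0.67 for Apoa2, -0.20 to 0.69 for Apoh, -0.073 to 0.55 for Fga, -0.41 to 0.82 for Fgb, -0.32 to 0.82 for Fgg and -0.051 to 0.17 for Tat, and all 9 turned only without Per3-/- mouse 2. In the hypothalamus they were -0.84 to 0.27 for Alb, -0.65 to 0.24 for Ahsg, -0.16 to 0.23 for Apoa1, -0.24 to 0.33 for Fgb and -0.038 to 0.21 for Tat, and Apoa2, Apoh, Fga and Fgg kept their sign. The count of gene pairs by r ran from 54 to 81 around 78. By rho it was 58, with 25 without the highest mice and 67 with quantile normalization and with normexp. Dim probes limit what can be said of Apoa1, Fga, Fgb and Fgg in the hypothalamus.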
